A study of Trichoderma reesei with 36 samples.

Results

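The 74 genes described here are those of *Trichoderma reesei* Rut-C30 whose RNA was raised on a feed with 10% lactose at 24 h and was no further from that level on pure lactose than a set limit. They were chosen on measured values, out of 9129 genes in the files. Group means at 24 h of CPM, the read count of a gene relative to the library's total after edgeR's TMM scaling, were compared after adding 0.5. A gene was taken when its mean on the 10% feed was at least 5 CPM, when its log2 ratio to pure glucose was at least 1, and when its log2 ratio between pure lactose and the 10% feed lay within 0.5 of zero in either direction. Of the 7121 genes that reached 5 CPM on the 10% feed, 227 were raised by that measure. Pure lactose gave a higher level for 126 of them, a lower level for 27 and a level within the limit for 74. All values at 24 h are therefore a description of the choice, without a test, and the tests below use the libraries taken at 48 h.

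The strain, a cellulase hyperproducer and the only one used, was grown on glucose in flasks and then fed with glucose alone (G100), lactose alone (L100), 90% glucose with 10% lactose (G90-L10) or 75% glucose with 25% lactose (G75-L25). Every group shares the strain and the glucose batch before the feed, and each culture passed through one flask that was divided among feeds. Each time, 24 h and 48 h after the feed began, has 6 libraries of G100, 6 of L100, 4 of G75-L25 and 2 of G90-L10, described as biological replicates. The stated number of flasks per feed equals the number of libraries at each time, so both times come from the same flasks. The tests at 48 h are thus not independent of the choice at 24 h. The fits below also took the libraries of both times as independent. The labels begin with 2014 for pure feeds and 2015 for mixtures. What this prefix stands for is not stated, and where a mixture is set against a pure feed, feed and prefix cannot be told apart. L100 against G100 and G75-L25 against G90-L10 each lie within a prefix. With 2 libraries, G90-L10 is the group with the least information, and the choice of the 74 genes rests on it.

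*T. reesei* secretes cellulases and hemicellulases that break plant cell walls down to sugars, and lactose is a soluble sugar that switches these genes on. In most strains glucose holds them down through the repressor CRE1, which is truncated in Rut-C30. Genes that respond to lactose can therefore be read here in the presence of glucose. They can be sorted by whether their level at a small lactose share is near that on pure lactose.

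Total counts ranged from 9955798 to 49808747 per library. In earlier results of these data 3 libraries stood apart from their groups, namely L100 at 48 h replicate 3, G75-L25 at 24 h replicate 4 and G75-L25 at 48 h replicate 4, and counts are given with all 36 libraries and without these 3. The summed CPM of 6 development markers was 26661 in L100 at 48 h replicate 3 and 182 to 2170 in the other 5 libraries of that group. The markers include developmental regulators that the study reported as lowered on lactose in these samples, beside genes annotated as hydrophobins or for conidia. Their sum also differed between feeds at 24 h. It was 6753 to 10743 on G100, 3351 to 4677 on G90-L10, 873 to 3300 on G75-L25 and 1319 to 2558 on L100. Because of how the markers were chosen, this difference is no separate evidence. The part of this sum in the values below was not tested. In RNA from whole cultures, a smaller share of one kind of cell and less RNA per cell cannot be told apart.

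The log2 rise of the 74 genes on G90-L10 at 24 h ran from 1.00 to 2.75 with a median of 1.26, which is 2.00 to 6.74 times the G100 value. Only 8 genes rose by 2 or more on the log2 scale. The ratio of L100 to G90-L10 ran from −0.47 to 0.50 with a median of 0.03. Mean levels on G90-L10 spanned 5.18 to 12526 CPM, with a median of 101 CPM, 6 genes at 1000 CPM or more and 10 genes below 10 CPM. Together the genes held 1.15% to 2.88% of all counts on G100 at 24 h, and 3.57% to 4.44% on G90-L10, 3.24% to 7.68% on G75-L25 and 2.57% to 6.72% on L100.

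The thresholds cut through a continuous range. Just inside the limit on the rise were ID 27219 (1.00), ID 122506 (1.01) and ID 108852 (1.01), and just outside were ID 58767 and ID 105223, which both round to 1.00, and ID 30668 (0.99). The difference between L100 and G90-L10 was 0.50 for ID 123473, 0.48 for ID 22197 and 0.47 for ID 120953 inside the limit, and 0.51 for ID 60773, −0.51 for ID 76374 and 0.52 for ID 44967 outside it. The level limit kept ID 108682 at 5.18 CPM, ID 27219 at 5.72 CPM and ID 3055 at 5.87 CPM, and it left out ID 59372 at 4.62 CPM, ID 65190 at 3.41 CPM and ID 58774 at 3.13 CPM. With scaling by library size alone, 62 genes met the rule, and 32 of them were among the 74. Without G90-L10 at 24 h replicate 1 it took 88 genes with 48 of the 74, and without replicate 2 it took 62 genes with 45 of the 74.

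In each library, the median log2 ratio of the 74 genes to the G100 mean of that time placed all libraries fed with lactose above all those fed with glucose, except L100 at 48 h replicate 3. At 48 h, a time not used for the choice, the G100 libraries lay between −0.28 and 0.17 and the G90-L10 libraries at 0.96 and 0.86. The G75-L25 libraries lay between 0.88 and 1.23. L100 replicate 3 lay at −1.03, and the other 5 libraries of that group between 0.87 and 1.15. The lactose groups thus overlapped each other and, that library aside, did not overlap G100.

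**Figure D1:**
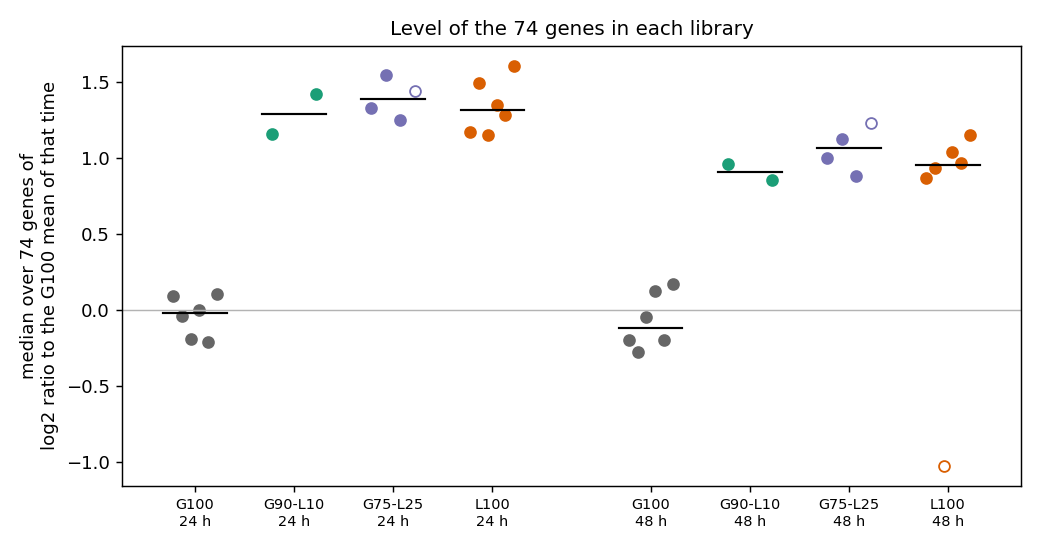
Each point is 1 library, and the vertical axis is the median over the 74 genes of the log2 ratio to the mean of G100 at the same time; lines are group medians and open circles are the 3 libraries that stood apart. At 48 h the G90-L10 libraries are at 0.96 and 0.86, G75-L25 spans 0.88 to 1.23, and L100 spans 0.87 to 1.15 apart from 1 library at −1.03.

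The study's list of genes that changed with feed, chosen on these same samples, gives a cluster or function for 18 of the 74 genes. Of these, 16 fall in its cluster of genes raised on lactose unevenly, which has 53 genes in the files, and 2 in a second raised cluster. A function is stated for 15 of them and 3 are of unknown function. By a search for words, the functions include 3 of carbohydrate-active proteins, 4 of oxidation or secondary metabolism, 1 transporter and 1 small secreted cysteine-rich protein. The whole list of 650 genes holds 83, 75, 61 and 11 genes of these classes. No transcription factor and no protease was found among the 18, where the list holds 22 and 17. With 18 genes, this absence is not read as a trait of the members. Of the 74 genes, 1 (1.35%) is among the 166 genes in the files mutated in this strain, which are 1.82% of all genes. The other 56 genes are given by their IDs alone.

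The genes counted as carbohydrate-active are ID 22197, ID 66041 and ID 120953. The words searched had none for lyases, so the putative alginate lyase domain protein ID 58525, described below, was not counted. ID 22197 encodes CEL1B, an intracellular β-glucosidase of glycoside hydrolase family 1, an enzyme class that splits cellobiose into glucose. At 24 h its level was 355, 400 and 487 CPM (lowest, median and highest) on G100, 1281 and 1111 CPM in the 2 libraries of G90-L10, 1881, 1797, 1732 and 968 CPM on G75-L25 and 1374, 1547 and 2087 CPM on L100. At 48 h it was 371, 499 and 627 CPM on G100, 1142 and 881 CPM on G90-L10, 1363, 1284, 1115 and 1007 CPM on G75-L25 and 195, 1115 and 1355 CPM on L100. All libraries with lactose stood above all G100 libraries of their time, with the exception of the L100 library at 195 CPM, which is the one that stood apart. The log2 fold change of G90-L10 over G100 at 48 h was 1.01 ± 0.33 (SE, adjusted p = 0.0436), and without the 3 libraries 1.01 ± 0.16 (adjusted p = 2.85e-05). On the 33 libraries L100 differed from G90-L10 by 0.22 with a 95% interval from −0.13 to 0.58.

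ID 66041 encodes CHI18-18 and ID 120953 another protein of glycoside hydrolase family 18, the family of fungal chitinases, which cut the chitin of fungal walls. At 24 h CHI18-18 was at 115, 150 and 200 CPM on G100, 678 and 632 CPM on G90-L10, 884, 1179, 1289 and 1024 CPM on G75-L25 and 410, 512 and 585 CPM on L100. Its level was thus higher in every G75-L25 library than in every library of the other feeds at that time. At 48 h it was at 146, 285 and 417 CPM on G100, 727 and 332 CPM on G90-L10, 855, 1027, 970 and 1461 CPM on G75-L25 and 11.03, 552 and 751 CPM on L100. The G90-L10 libraries lay on both sides of the highest G100 library, and the rise of 0.90 ± 0.56 did not pass the test (adjusted p = 0.276), whereas without the 3 libraries it was 0.90 ± 0.27 (adjusted p = 0.0104). The difference between G75-L25 and G90-L10 did not pass the test (adjusted p = 0.151 without the 3 libraries). ID 120953 went from 194, 228 and 270 CPM on G100 to 639 and 716 CPM on G90-L10 and 798, 945 and 1072 CPM on L100 at 24 h. At 48 h its rise on G90-L10 was 0.98 ± 0.45 (adjusted p = 0.14), or 0.98 ± 0.23 (adjusted p = 0.00171) without the 3 libraries. Per kilobase of gene, the mean levels on G90-L10 at 24 h were 699 CPM for CHI18-18, 691 CPM for CEL1B and 299.8 CPM for ID 120953.

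The oxidation genes held the member with the second largest rise. ID 70984, a putative cytochrome P450 and so a member of the monooxygenase family, was at 18.5, 34.2 and 55.6 CPM on G100 at 24 h, 226 and 246 CPM on G90-L10, 200.03, 238, 279 and 145 CPM on G75-L25 and 151, 204 and 345 CPM on L100. At 48 h it was at 36.2, 42.0 and 87.8 CPM on G100, 267 and 239 CPM on G90-L10, 264, 346, 288 and 213 CPM on G75-L25 and 4.29, 182 and 250.1 CPM on L100. At both times every library of the mixtures stood above every G100 library. The rise on G90-L10 at 48 h was 2.38 ± 0.54 (adjusted p = 0.0056), and without the 3 libraries 2.38 ± 0.29 (adjusted p = 4.6e-07). The putative FAD oxidoreductase ID 5345 rose by 1.29 ± 0.29 without the 3 libraries (adjusted p = 0.00133) and had an adjusted p of 0.0734 with them, and the Rossmann-fold protein ID 106164, of a type that binds NAD(P), rose by 1.74 ± 0.58 (adjusted p = 0.0474).

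The list also holds a pair of dehydrogenases. ID 3292, a putative D-arabinitol 2-dehydrogenase, which acts on a sugar alcohol, was at 2.37, 3.12 and 3.82 CPM on G100 at 48 h, 6.75 and 11.9 CPM on G90-L10, 6.20, 5.75, 4.97 and 23.3 CPM on G75-L25 and 1.42, 16.0 and 27.2 CPM on L100. Its rise on G90-L10 was 1.56 ± 0.60 (adjusted p = 0.0836) with all libraries, and without the 3 libraries 1.55 ± 0.35 (adjusted p = 0.00126). L100 then stood above G90-L10 by 1.01 ± 0.38 (adjusted p = 0.0289). The putative alcohol dehydrogenase ID 69956 had 12.9 and 49.6 CPM on G90-L10 at 48 h and 3.42, 79.8 and 171 CPM on L100. Neither its rise on G90-L10 (1.51 ± 0.96, adjusted p = 0.292) nor its difference between L100 and G90-L10 (1.35 ± 1.10, adjusted p = 0.364) passed the test, and without the 3 libraries the adjusted p was 0.0873 and 0.089.

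Of the other genes with a stated function, ID 70973 rose most at 48 h. It encodes a putative GCN5-related N-acetyltransferase, a family that transfers acetyl groups. It was at 4.34, 6.77 and 11.1 CPM on G100, 68.5 and 52.8 CPM on G90-L10, 73.4, 68.5, 45.9 and 41.9 CPM on G75-L25 and 0.451, 46.7 and 51.7 CPM on L100. The rise on G90-L10 was 3.04 ± 0.57 (adjusted p = 0.00156), and L100 without the 3 libraries differed from G90-L10 by −0.36 with an interval from −0.96 to 0.25. ID 108663, a putative small secreted cysteine-rich protein, rose by 1.57 ± 0.31 (adjusted p = 0.00234). Both G90-L10 libraries of this gene, at 37.7 and 30.2 CPM, stood above the highest G100 library at 15.5 CPM. The putative phosphoribosyltransferase ID 55837 rose by 1.51 ± 0.26 without the 3 libraries (adjusted p = 8.12e-05) and had an adjusted p of 0.000753 with them. The putative MFS transporter ID 70933, of a large family of membrane carriers, was at 1.02, 2.29 and 3.95 CPM on G100 at 48 h and at 8.55 and 2.63 CPM on G90-L10. These groups overlapped, and the difference did not pass the test (adjusted p = 0.247).

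The gene with the largest rise at 24 h was ID 105221, of unknown function, with 0.738, 2.66 and 3.78 CPM on G100 and 19.9 and 17.0 CPM on G90-L10. At 48 h it rose by 1.53 ± 0.46 (adjusted p = 0.027). ID 105220, a putative DUF3328 protein, lies next to it in the reference table's order of genes and rose by 1.47 ± 0.42 (adjusted p = 0.0209). The levels of ID 122499, a gene named here for its small spread after its values were seen, were 43.7, 55.4 and 66.4 CPM on G100 at 24 h, 184 CPM in both G90-L10 libraries and 175, 189 and 201 CPM on L100. At 48 h the gene had 191 and 215 CPM on G90-L10 and 187 to 216 CPM in L100 apart from 28.7 CPM in replicate 3. Without the 3 libraries its rise at 48 h was 1.70 ± 0.13 (adjusted p = 1.1e-10), and L100 differed from G90-L10 by −0.04 with an interval from −0.32 to 0.25.

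**Figure D2:**
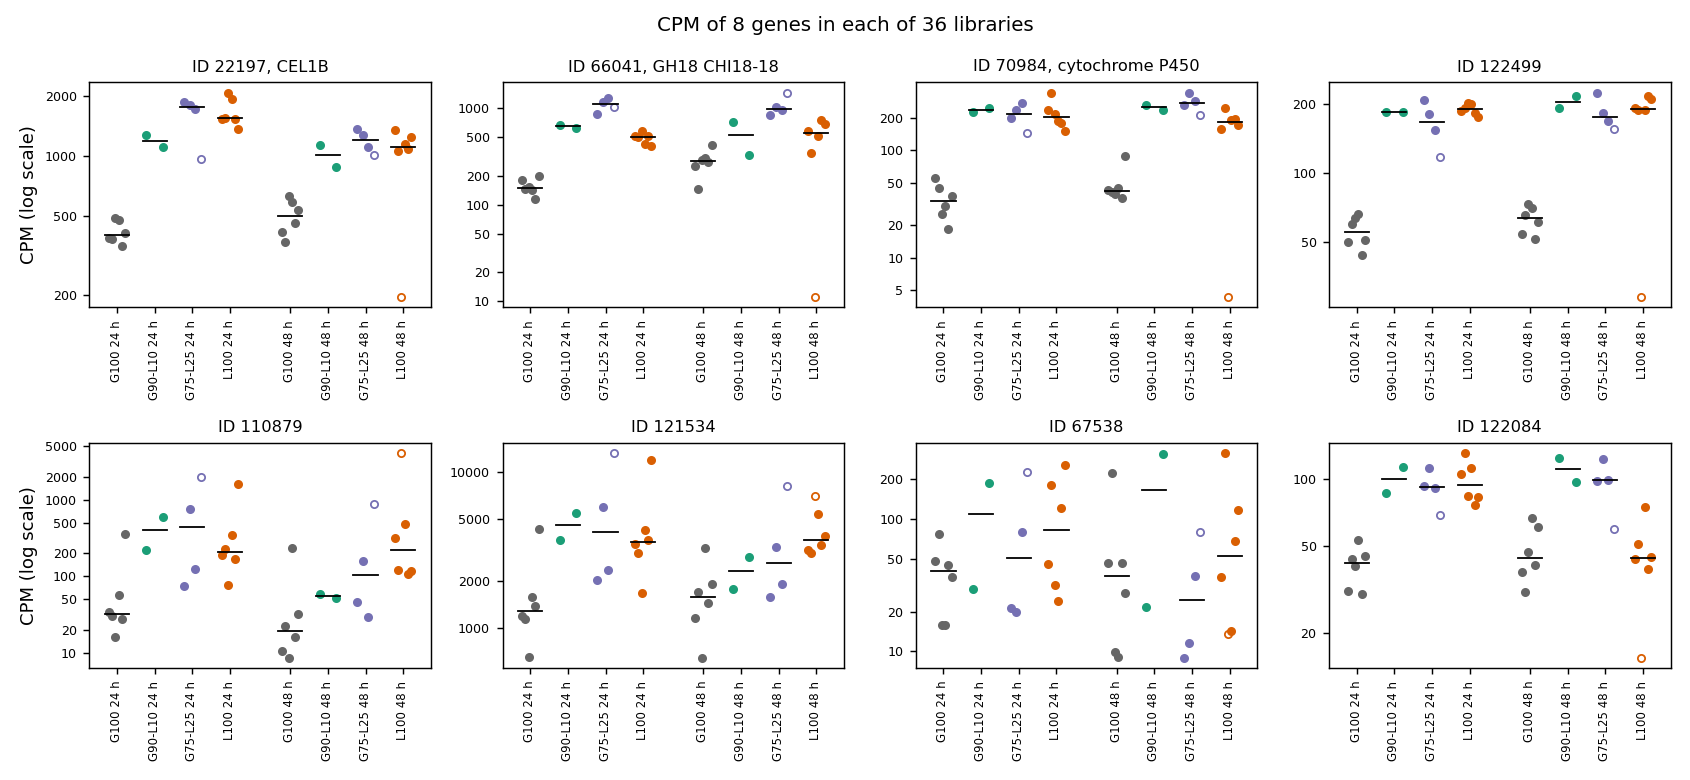
CPM on a log scale of 8 of the 74 genes in each of 36 libraries; points are libraries, lines are group medians and open circles are the 3 libraries that stood apart. The 2 G90-L10 libraries of ID 22197 and ID 122499 are close together and near L100, those of ID 67538 at 24 h are at 29.6 and 187 CPM, and ID 122084 falls back on L100 at 48 h to a median of 43.9 CPM.

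Whether the rise on G90-L10 was still there at 48 h was tested with edgeR's quasi-likelihood model over all genes that passed its filter on low counts, which all 74 did. The fitted difference was above zero for all 74 genes, from 0.01 to 3.04, with a median of 1.07 where the median of all 8347 genes tested was 0.03. An adjusted p below 0.05 was reached by 25 genes, or 33.8%, all of them higher on G90-L10, where 7.39% of all genes tested were higher. No gene was lower. Without the 3 libraries 49 genes (66.2%) were higher, against 17.1% of all genes, and they included the 25. The thresholds of the study for differential expression (DE), an adjusted p below 0.001 and a log2 fold change above 2, were met by 0 genes with all libraries, where 0.0719% of all genes met them. At an unadjusted p below 0.05 edgeR counted 47 genes, where 17.3% of all genes were higher. ID 70984 and ID 70973 met the DE thresholds without the 3 libraries, where 0.384% of all genes did. Both G90-L10 libraries stood above all 6 G100 libraries in 40 of the 74 genes, against 21% of all genes tested. The 25 calls became 15 with scaling by library size alone (2.5% of all genes) and 5 in a fit of only the 48 h libraries (2.21%). They became 8 without G90-L10 at 48 h replicate 1 (3.81%) and 3 without replicate 2 (0.38%), fits in which the remaining library is assumed to vary like those of the other groups. The median rise of the 74 genes was then 0.93 and 0.97.

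L100 was set against G90-L10 at 48 h to see whether the likeness of these 2 feeds held a day later. With all libraries, edgeR called 0 of the 74 genes higher on L100, where 15.4% of all genes were, and 3 lower, where 16.4% of all genes were. DESeq2 called 2 higher (18.7% of all genes), and 9 of the genes had an unadjusted p below 0.05 in either direction (42.4%). Without the 3 libraries 5 genes were higher, against 22.3% of all genes, and 7 were lower, against 27.1%. The median difference was −0.21 with all libraries and −0.00 without the 3. A missing call is not evidence of an equal level, so the intervals count: with all libraries the 95% interval lay wholly within 1 log2 unit of zero for 17 genes and crossed that limit for 57, and without the 3 libraries for 38 and 36 genes. The median width on either side of the estimate was 0.94 and 0.61 log2 units. For the genes that crossed the limit, a difference of more than 1 log2 unit was not excluded at this number of libraries.

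**Figure D3:**
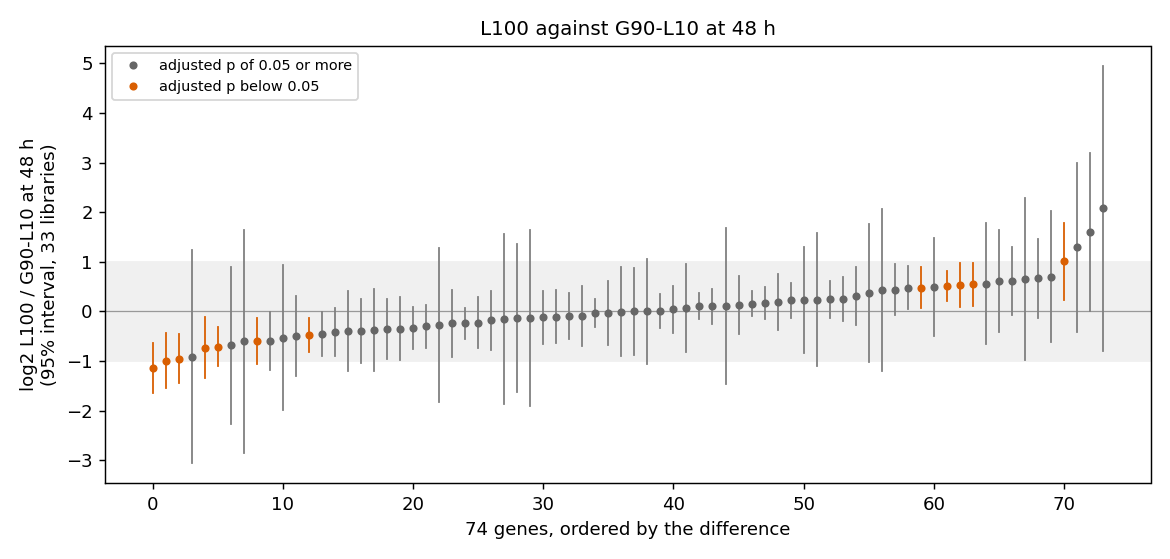
The log2 difference of L100 from G90-L10 at 48 h with its 95% interval for each of the 74 genes, ordered by the difference, from the fit without the 3 libraries that stood apart; the shaded band is 1 log2 unit on either side of zero. Of the 12 genes with an adjusted p below 0.05, 7 lie below zero and 5 above, and 38 intervals lie inside the band.

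The genes called lower on L100 than on G90-L10 at 48 h with all libraries were ID 58525, ID 122084 and ID 122506. ID 58525 encodes a putative alginate lyase domain protein, of a class that cleaves uronic acid polymers. It was at 19.5, 27.1 and 39.2 CPM on G100, 68.2 and 47.0 CPM on G90-L10, 68.9, 84.1, 71.3 and 45.9 CPM on G75-L25 and 12.3, 25.4 and 50.3 CPM on L100. The mixtures thus lay above G100, while L100 overlapped it. L100 differed from G90-L10 by −1.10 ± 0.31 (adjusted p = 0.00738), and without the 3 libraries by −0.95 ± 0.24 (adjusted p = 0.00188). ID 122084 was at 30.7, 43.9 and 66.6 CPM on G100, 126 and 97.3 CPM on G90-L10, 98.6, 124, 99.3 and 59.3 CPM on G75-L25 and 15.4, 43.9 and 75.2 CPM on L100, although at 24 h its L100 libraries had reached 76.4 to 131 CPM. L100 differed from G90-L10 by −1.32 ± 0.32 (adjusted p = 0.00251). ID 122506 differed by −0.94 ± 0.27 (adjusted p = 0.00945), while its difference of G90-L10 from G100 did not pass the test (0.46 ± 0.28, adjusted p = 0.261). Without G90-L10 at 48 h replicate 1, where the spread around the remaining library is taken from the other groups, the differences were −0.83 for ID 58525 (adjusted p = 0.152), −1.14 for ID 122084 (adjusted p = 0.0535) and −0.78 for ID 122506 (adjusted p = 0.127). ID 110220, ID 124295, ID 122089 and ID 76659 were lower as well without the 3 libraries, with differences of −0.73, −0.71, −0.60 and −0.48.

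The 5 genes higher on L100 without the 3 libraries were ID 3292, ID 69777, ID 23298, ID 61153 and ID 123473. The dehydrogenase ID 3292 differed most. ID 123473 was at 289 and 213 CPM on G90-L10 at 48 h and at 317 to 397 CPM in 5 libraries of L100, with 86.0 CPM in replicate 3. It differed by 0.51 ± 0.15 (adjusted p = 0.00611), and at 24 h it was the gene nearest to the limit of the rule. The 3 others differed by 0.55 (ID 69777), 0.48 (ID 23298) and 0.53 (ID 61153).

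When libraries were scaled by their size alone, the all-gene median of the difference between L100 and G90-L10 moved by −0.48, and that of the 74 genes became −0.74. The number called lower was then 26 instead of 3, and 53.4% of all genes were called lower. The median of the rise on G90-L10 moved little, by −0.10 over all genes, to 0.97 over the 74.

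Applied at 48 h, the rule used at 24 h was met by 21 of the 74 genes (28.4%), and by 0.559% of all genes in the files. Without the 3 libraries 23 genes (31.1%) met it, against 0.526%. With scaling by library size alone 5 of the 74 met it, and without G90-L10 at 48 h replicate 1 it was met by 12. At 48 h 38 genes were raised by 1 or more on the log2 scale on G90-L10 and 44 were within 0.5 of G90-L10 on L100, or 49 without the 3 libraries. No share of all genes was computed for either part of the rule alone, so these counts are not read as a trait of the members. Among the raised genes that were not alike, 14 were lower on L100 and 2 were higher, or 9 and 5 without the 3 libraries. The 126 genes that were higher on L100 at 24 h had a median difference of 1.13 (1.37 without the 3 libraries) between L100 and G90-L10 at 48 h, and the 27 lower ones one of −1.16 (−1.12). Of these, 18 and 2 genes were within 0.5 of G90-L10 at 48 h, or 10 and 2 without the 3 libraries. The medians at 48 h thus had the direction by which the genes were sorted at 24 h, in later samples of the same flasks, but not each gene did.

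**Figure D4:**
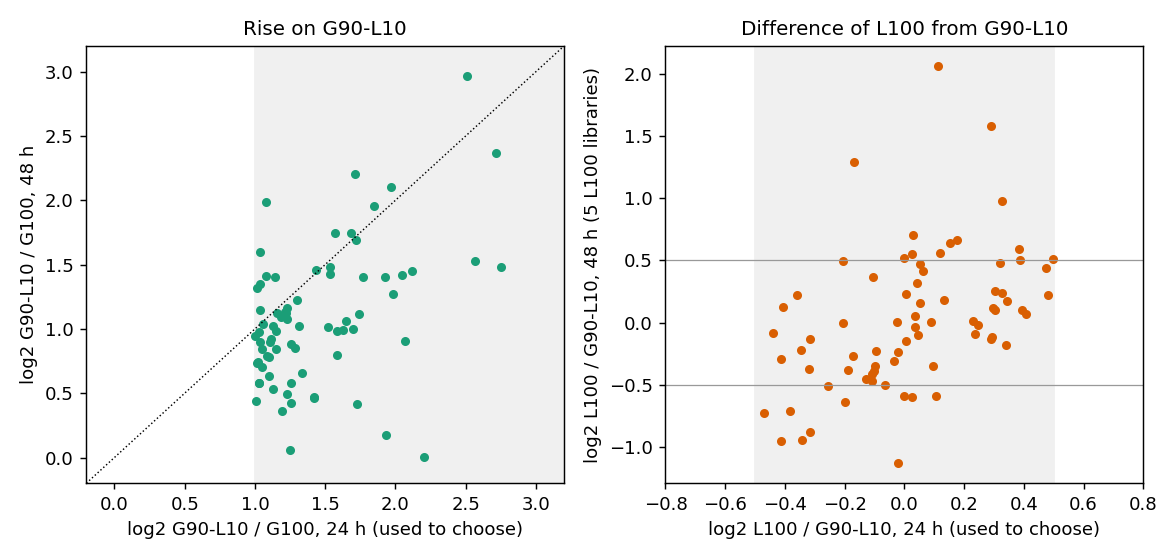
Left, the rise on G90-L10 over G100 at 24 h and at 48 h for each of the 74 genes. Right, the difference of L100 from G90-L10 for the same genes. Values are log2 with 0.5 added to the mean CPM, without the 3 libraries at 48 h. The shaded ranges are those the rule used at 24 h. At 48 h the rise has a median of 1.02 and the difference one of 0.00.

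The feed with 25% lactose took no part in the rule, but the means at 24 h that it is set against did. The counts at 24 h are therefore a description and no separate evidence. Their shares over all genes were not computed. At 24 h the mean on G75-L25 was above that of both other lactose feeds for 33 genes, between them for 23 and below both for 18, or for 35, 12 and 27 without G75-L25 at 24 h replicate 4. It was above G100 for all 74 genes, by 1 or more on the log2 scale for 65, and within 0.5 of G90-L10 for 63. Without that library these last 3 counts were 68, 51 and 44. At 48 h edgeR called 0 of the 74 genes different between G75-L25 and G90-L10, with 0% of all genes called, 2 of the 74 at an unadjusted p below 0.05 (15.7% of all genes), and 0 by DESeq2 (0.193%). Without the 3 libraries the counts were 0 of the 74, 0.156% of all genes, 24 at an unadjusted p below 0.05 (20% of all genes) and 1 by DESeq2 (2.52%). The 95% interval of this difference lay wholly within 1 log2 unit of zero for 20 genes and crossed that limit for 54, and without the 3 libraries for 29 and 44 genes with 1 wholly outside it. The nearest to a call in the second fit were ID 123473 and ID 120953, higher on G75-L25 (adjusted p = 0.106 and 0.11), and ID 122089, lower (adjusted p = 0.112).

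Both feeds richer in lactose, which have more libraries than G90-L10, were also set against G100 at 48 h. On G75-L25 51 genes were higher, where 21.3% of all genes were, and without the 3 libraries 48, where 21% were, with 47 called both ways. On L100 44 genes were higher, where 27.7% of all genes were, and without the 3 libraries 57, where 31.6% were. ID 122506 alone was lower on L100, where 27.2% of all genes were lower, or 35.3% without the 3 libraries, by −0.53 ± 0.21 (adjusted p = 0.0248) in the second fit. The DE thresholds were met on G75-L25 by 2 genes (1.03% of all genes), or 5 without the 3 libraries (1.27%), and on L100 by 2 genes (2.61%), or 7 (3.26%). ID 70973 met them on both feeds in both fits. These comparisons share the G100 libraries with the one on G90-L10.

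The 74 genes differed widely in how far libraries of a group agreed. The spread within groups, as the SD of log2(CPM + 0.5) over 33 libraries, ran from 0.14 to 1.48 with a median of 0.37, where the median of all genes tested was 0.17. It exceeded 1 for 5 genes, ID 67538, ID 110879, ID 3055, ID 62100 and ID 44965, and for 0.335% of all genes. It was below 0.3 for 23 genes. In the rule's own group, the 2 libraries of G90-L10 at 24 h differed by more than 0.5 on the log2 scale for 28 genes, with replicate 2 the higher in 23 of them, and by less for 46. Of the 46 genes with close libraries, 23 were higher on G90-L10 than on G100 at 48 h (38 without the 3 libraries), and of the 28 others 2 were (11). Of all genes tested, 7.39% were higher, or 17.1% without the 3 libraries. With all libraries, the 28 genes thus had calls at about the rate of all genes. The median of the log2 ratio of G90-L10 to G100 at 48 h was 1.02 for the close genes and 1.01 for the others.

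The largest gap was that of ID 67538, at 29.6 and 187 CPM on G90-L10 at 24 h and at 21.8 and 310.5 CPM at 48 h. On L100 at 24 h it spanned 24.1 to 258 CPM around a median of 83.2 CPM, and on G100 15.7 to 77.6 CPM. These ranges overlapped, and the difference of G90-L10 from G100 at 48 h was 1.46 ± 1.12 (adjusted p = 0.388). ID 3055, ID 104089, ID 62100 and ID 5502 were also higher in replicate 2 than in replicate 1 of G90-L10 at both times, as ID 5502 shows with 5.73 and 23.8 CPM at 24 h and 3.73 and 23.9 CPM at 48 h. The labels do not say which library at 24 h shares a culture with which at 48 h.

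ID 110879, the gene with the fifth largest rise, was at 15.8, 31.8 and 358 CPM on G100 at 24 h, 217 and 586 CPM on G90-L10, 75.2, 758, 123 and 1968 CPM on G75-L25 and 76.2, 207 and 1601 CPM on L100. At 48 h G90-L10 fell within the range of G100, with 57.9 and 51.3 CPM against 8.49, 19.2 and 236 CPM, while L100 had 107 to 485 CPM and 4048 CPM in replicate 3. The difference of G90-L10 from G100 without the 3 libraries was 0.02 ± 1.22 (adjusted p = 0.991). Its high libraries, G100 at 24 h replicate 6, L100 at 24 h replicate 6 and G100 at 48 h replicate 4, were also high for ID 82032, ID 121534 and ID 121491. G100 at 24 h replicate 6 was the highest library of its group for 25 of the 74 genes and for 14.5% of all genes tested. L100 at 24 h replicate 6 was the highest for 23 genes and 22.4% of all genes.

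Several of the most abundant members varied in the same libraries. Per kilobase of gene, the highest mean levels on G90-L10 at 24 h were 4254 CPM for ID 80920, 4130 CPM for ID 77481, 3838 CPM for ID 62100, 2354 CPM for ID 120821 and 1981 CPM for ID 121534. ID 77481 was at 3190, 4074 and 11106 CPM on G100 at 24 h, 10811 and 14240 CPM on G90-L10 and 5589, 9127 and 21645 CPM on L100. The highest G100 library overlapped the lactose groups. At 48 h the differences of G90-L10 from G100 were 0.49 ± 0.48 for ID 77481 (adjusted p = 0.513), 0.64 ± 0.43 for ID 80920 (adjusted p = 0.325), 0.46 ± 0.69 for ID 121534 (adjusted p = 0.678), 0.43 ± 0.70 for ID 121491 (adjusted p = 0.713) and 1.35 ± 0.95 for ID 62100 (adjusted p = 0.347). ID 120821 was even within groups at 24 h, with 1112, 1490 and 1854 CPM on G100, 3404 and 3177 CPM on G90-L10 and 2430, 2545 and 2900 CPM on L100, and its difference at 48 h passed the test without the 3 libraries alone (0.85 ± 0.24, adjusted p = 0.00816). ID 124295 rose by 1.16 ± 0.37 (adjusted p = 0.04).

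Most of the enzyme genes for which the strain is known lie outside the 74. Of 11 cellulases and helper proteins, 11 were raised on G90-L10 at 24 h and 0 were among the 74, since L100 gave a higher level for all 11, by a median of 2.30 on the log2 scale. At 48 h 8 of the 11 were called higher on L100 than on G90-L10, with or without the 3 libraries, where 15.4% and 22.3% of all genes were. Of 12 hemicellulases 11 were raised and 0 were among the 74 (median difference 2.07 at 24 h, 6 higher on L100 at 48 h and 12 without the 3 libraries). Of 5 genes for the use of lactose and D-galactose, 4 were raised and 0 were among the 74 (1.71, 3 and 5 higher). Of 6 regulators, 5 were raised and 0 were among the 74 (0.75, 2 and 3 higher, 1 lower either way). The 6 β-glucosidases held the only gene of these lists among the 74, CEL1B, and had a median difference of 0.61, with 1 higher on L100 at 48 h and 3 without the 3 libraries. Not every gene left out was higher on L100, as BGL1 (ID 76672), another β-glucosidase, rose by 0.96 on G90-L10 at 24 h and differed by 0.25 on L100. The regulator ACE3 (ID 77513) and the β-glucosidase CEL3E (ID 76227) rose by 1.67 and 1.76 and lay just outside the limit, both at 0.56. At 48 h L100 differed from G90-L10 by −0.16 for both, or by 0.01 and 0.03 without the 3 libraries. The lists come from genes that the study named on these samples, so their direction is no separate evidence.

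In the order of genes in the reference table, 73 of the 74 could be placed. At most 1 gene apart, 19 of them (26.0%) formed 9 runs, among them ID 105220 with ID 105221, ID 120953 with ID 105444, ID 108663 with ID 122499 and ID 3292 with ID 73134 and ID 76696. Of the 126 genes higher on L100, 34.1% formed such runs, and of the 27 lower ones 29.6%. The share in runs depends on the number of genes in a set. No share was computed for random sets of this size, so these values do not show whether the runs are more than usual. Neighbours in these runs did not always vary alike, as ID 5345 and ID 67538 show. The median gene length was 1445 bases, and 1503 bases over all genes.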

How the data were processed

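The authors sequenced 36 stranded libraries, filtered reads with the Eoulsan pipeline and deposited, per library, whole-number counts of reads on 9129 genes without normalization. The submitters' processing notes name bcl2fastq 2.17.1.14, Bowtie and HTSeq 0.5.3, and the paper's methods the JGI annotation version 2. How reads shared by similar genes were counted is not given in the sources used here. Feed and time came from the labels. The p-values rest on the spread between these libraries within their groups, estimated over all groups together. For G90-L10, with 2 libraries a time, that spread comes mostly from the other groups.

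Members and gene lists were chosen with earlier results of these data known. The 3 libraries set aside were picked there by how near the remaining fold changes came to a table of the study, so this choice also used measured values. edgeR 4.0.16 in R 4.3.3 fitted TMM-scaled counts of 8 groups (filterByExpr with a minimum count of 10, 8347 genes, or 8335 without the 3 libraries), with quasi-likelihood tests and Benjamini-Hochberg adjustment over all genes tested at 0.05. Python 3.11.15 with pandas 2.3.3, numpy 2.4.6 and matplotlib 3.10.9 did the rest. On simulated data (8329 genes) the test of G90-L10 against G100 recovered 57 of 100 genes changed 2-fold and 90 of 100 changed 4-fold with 7 false calls. That of L100 against G90-L10 recovered 69 and 90 with 8 false calls.

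Named genes are members with a gene name, the 10 most abundant and the 10 most raised on G90-L10 at 24 h, the 3 on either side of each threshold, and those with the smallest adjusted p for L100 (5) and G75-L25 (3) against G90-L10 in each direction. Some appear only within counts. The other genes with a function, ID 122499 and those named for their spread or neighbours were chosen after their values were seen. Gene functions and the mutated genes are those of the study's list. Alternatives were DESeq2 1.42.0, RLE, library size alone, other filters and limits, only the 48 h libraries, and each library left out; DESeq2 and the DE thresholds without the 3 libraries were added after seeing the data. Promoters, proteins and coordinates were not analysed here.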

Additional observations from a re-analysis of the deposited data

Results flagged for a closer look

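In groups of 4 to 6 libraries, the highest or lowest library was compared with the rest by Dixon's test. Over 210 groups of values of the named genes and of the median of the 74 genes, 52 values lay apart, in 12 libraries, and 23 of them lay in the 3 libraries that stood apart. For independent values with a normal spread, chance alone gives about 5% of groups such a value. These values are CPM, and several genes vary in the same libraries, so that rate need not hold here. No cause was tested. All values are CPM unless stated.

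In L100 at 48 h replicate 3 the median log2 ratio of the 74 genes was −1.027, against 0.87 to 1.15 in the other libraries. It was low for ID 108663 (10.83), ID 70973 (0.4514), ID 106164 (0.03224), ID 120953 (66.45), ID 22197 (195), ID 124295 (56.68), ID 108682 (0.9995) and ID 123473 (86.02). It was high for ID 110879 (4048), ID 82032 (1319) and ID 121491 (2414). CEL1B (ID 22197) was at 1065 to 1355 in the other 5 libraries.

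G75-L25 replicate 4 lay apart at both times. At 24 h it was high for ID 5502 (21.34), ID 122089 (76.4), ID 3055 (8.744) and ID 62100 (8018), and low for ID 58525 (25.83) and ID 22197 (967.9). At 48 h it was high for ID 110879 (870.5), ID 82032 (623.3), ID 61153 (118.5) and ID 108852 (8.685), and low for ID 76659 (77.23).

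Several of these genes were also high in libraries of pure feeds. G100 at 24 h replicate 6 had 358 for ID 110879, 358.1 for ID 82032, 390.2 for ID 21716, 4312 for ID 121534, 842.9 for ID 121491, 44.59 for ID 61153, 11110 for ID 77481 and 120.8 for ID 68813. L100 at 24 h replicate 6 had 1601 for ID 110879, 912.7 for ID 82032, 1184 for ID 21716, 11950 for ID 121534, 2576 for ID 121491 and 15.21 for ID 108852. G100 at 48 h replicate 4 had 235.9 for ID 110879, 219 for ID 82032 and 45.63 for ID 61153.

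ID 5502, ID 104089, ID 3055 and ID 62100 were high in others. G100 at 48 h replicate 2 had 9.217 for ID 5502, 32.03 for ID 122089, 10.06 for ID 104089, 15.98 for ID 3055 and 2832 for ID 62100. L100 at 48 h replicate 2 had 22.62 for ID 5502, 12.54 for ID 104089 and 32.18 for ID 3055. ID 104089 was high in G100 at 24 h replicate 2 (7.218) and in L100 at 24 h replicate 2 (14.67). ID 5345 was low in G100 at 24 h replicate 5 (14.49), and ID 70984 was high in G100 at 48 h replicate 6 (87.79).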

How the results depend on the processing

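With a limit of 0.25, 1 or a rise of 2, the rule took 43, 132 or 8 genes, and 62 to 88 genes with a library left out. The same rule at 48 h was met by 5 of the 74 with scaling by library size, and by 12 to 27 with a library left out (12 without G90-L10 at 48 h replicate 1). Of calls on G90-L10 against G100, scaling by library size left 15, a fit of only the 48 h libraries 5, leaving out the 3 libraries 49 (DESeq2 49), the DE thresholds 0 (2 without the 3), and leaving out a library 3 to 25. L100 was higher than G90-L10 for 2 genes by DESeq2, 5 without the 3 libraries (DESeq2 6) and 0 to 2 with a library left out, 2 being the count without L100 at 48 h replicate 3. It was lower for 26 by library size, 7 without the 3 libraries (DESeq2 7), 0 by the DE thresholds (0 without the 3) and 1 to 7 with a library left out: 1 without G90-L10 at 48 h replicate 1, 5 without L100 replicate 2 and 7 without L100 replicate 4. G75-L25 against G90-L10 gave 1 by DESeq2 without the 3 libraries and 0 to 0 with a library left out. Against G100, the DE thresholds left 2 genes on G75-L25 (5 without the 3) and 2 on L100 (7), library size left 20 on L100, and leaving out a library gave 43 to 52 on G75-L25 and 36 to 53 on L100. The causes were not tested, other than by the fewer libraries or stricter thresholds. The share of all genes called also moved with the processing. With scaling by library size it went from 7.39% to 2.5% for G90-L10 above G100, and from 16.4% to 53.4% for L100 below G90-L10. Where no such share is given, a count of calls is not read as a result about the members. For single genes, 968 values stayed on their side of the threshold, 70 lost a call, 48 gained one and 0 reversed. The members below 10 CPM rest on few reads, and how far depth limits their results was not tested. No paired analysis was possible because the labels number libraries serially, share no replicate number between groups and do not say which libraries share a flask.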
